A study of Mus musculus with 405 samples.

Results

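Heme synthesis and iron handling were followed through 9 genes, chosen by symbol as enzymes of the heme pathway and as carriers or stores of iron: Alas1, Uros, Urod, Cpox, Ppox, Fech, Fth1, Ftl1 and Tfrc. All 9 were among the 13304 genes of the expression table of the screen and among the 23893 genes of the count table for pyraclostrobin, and all 9 passed the filter on low counts that left 12324 genes there. The screen exposed cultured mouse cortical neurons to single chemicals and sequenced their polyadenylated RNA. Its table held 49 vehicle libraries and 344 libraries from 297 chemicals, of which 282 had 1 library each.

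The cultures came from embryonic day 15 offspring of C57BL/6J dams and CAST/EiJ males, so every group carried the same hybrid genome. They were exposed on day 7 in vitro for 24 h in 12-well plates, after an antimitotic given on day 3, and the vehicle was dimethyl sulfoxide by the study's methods. The main group was the 11 inhibitors of protoporphyrinogen oxidase (PPO) among the herbicides of the screen, each with 1 library at 10 μM. Of these, acifluorfen, lactofen and oxyfluorfen are diphenyl ethers, and the other 8 belong to 6 other structural classes. A group of 11 inhibitors of mitochondrial complex I (4) or III (7) at 0.01 to 10 μM, and topotecan at 0.3 μM with 32 libraries, served for comparison. The count table held 4 libraries of pyraclostrobin, a complex III inhibitor, at 0.1 μM and 4 of vehicle. The labels name no separate cultures for the libraries. In comparisons of topotecan and pyraclostrobin with vehicle, p-values measure the spread between libraries, which may be technical. For PPO inhibitors against vehicle they measure a mix of the spread between chemicals and the spread between libraries. In comparisons between groups of chemicals they measure the spread between chemicals, most with 1 library each. For pyraclostrobin a figure legend of the study gives fewer biological replicates than libraries, without tying them to libraries. Some libraries of a group may therefore share a culture. The fit took all libraries as independent, and its p-values would be too small if they were not. In bulk RNA, fewer cells of a type and less RNA per cell cannot be told apart.

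Heme is built from glycine and succinyl-CoA by a chain of enzymes that begins and ends in the mitochondrion. In cells other than red cell precursors the chain is set by Alas1, the rate-limiting 5-aminolevulinate synthase, whose expression is held down by heme. Uros and Urod act in the middle of the chain in the cytosol, Cpox and Ppox catalyse the oxidation steps that follow in the mitochondrion, and Fech inserts iron. Iron enters cells with transferrin through the transferrin receptor Tfrc and is stored in shells of the ferritin heavy chain Fth1 and light chain Ftl1. When iron is scarce, iron regulatory proteins bind hairpins in these messages, block the translation of ferritin and keep the Tfrc message from decay.

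Those hairpins were located in the transcripts of GENCODE vM1 on mm9, and are shown because they separate the iron genes of the group from its heme enzymes. The search required a C, 5 bases, the loop CAGTGN with any last base but G, and 5 bases that pair with the first 5, G with T allowed, on the sense strand of the message. Fth1 and Ftl1 each held 1 match in the 5′ UTR, and Tfrc held 4 in the 3′ UTR. The other 6 members held none in either UTR. Of all genes with a UTR of at least 30 bases, 0.118% held a match in the 5′ UTR and 0.468% in the 3′ UTR. Each site is printed below as 27 bases, 5′ to 3′, with the loop of 6 bases in capitals.
Fth1 5′ UTR, chr19:10057223-10057249, plus strand: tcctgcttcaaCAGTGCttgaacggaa
Ftl1 5′ UTR, chr7:52715150-52715176, minus strand: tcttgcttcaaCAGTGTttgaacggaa
Tfrc 3′ UTR, chr16:32631306-32631332, plus strand: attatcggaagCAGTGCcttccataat
Tfrc 3′ UTR, chr16:32631685-32631711, plus strand: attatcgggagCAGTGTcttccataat
Tfrc 3′ UTR, chr16:32631750-32631776, plus strand: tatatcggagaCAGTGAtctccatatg
Tfrc 3′ UTR, chr16:32631797-32631823, plus strand: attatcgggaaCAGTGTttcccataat
The ferritin sites shared 25 of 27 bases with each other, and the Tfrc sites shared 17 to 25 among themselves. Alas2, the erythroid counterpart of Alas1, also held a match in its 5′ UTR, whereas Alas1 held none. Alas2 had between 0 and 3 counts in each library of the count table, and 5 of 9 erythroid markers, Alas2 included, had at most 3 counts in every library. The summed level of all 9, which include globin genes, was 24.5 CPM in pyraclostrobin library 1 and 10.7 CPM in vehicle library 1, against 0.410 to 4.02 CPM in the other 6 libraries.

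The members lie on 7 chromosomes. On mm9, Alas1 spans chr9:106135786-106150457, Uros chr7:140877926-140901755, Urod chr4:116662570-116667018, Cpox chr16:58670321-58680504 and Ppox chr1:173206121-173211317. Fech spans chr18:64616204-64648720, Fth1 chr19:10057193-10059582, Ftl1 chr7:52713314-52715254 and Tfrc chr16:32609006-32632880. Alas1, Uros and Ppox overlap the opposite-strand genes 4930500F10Rik, Bccip and B4galt3. The library kit did not mark strand, so reads from the shared stretches cannot be assigned to one gene. Ferritin genes have processed pseudogenes, which can take part of their reads.

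Levels were compared between genes in the count table after division by the merged length of all annotated exons. For Ppox that length was 4515 of the 5197 bases of the gene, so its place depends on the transcripts annotated. In the 4 vehicle libraries, Fth1 stood at 883 ± 303 CPM per kilobase of exon (SD), far above Ftl1 at 127 ± 50.1 and Tfrc at 74.2 ± 5.63. Fech, the last enzyme of the chain, followed at 12.3 ± 0.412 CPM per kilobase, then Cpox at 6.72 ± 1.46 and Alas1 at 6.68 ± 1.08. Uros at 3.10 ± 0.647, Urod at 2.57 ± 0.865 and Ppox at 1.32 ± 0.122 were the lowest. Within this order Cpox and Alas1, and likewise Uros and Urod, overlapped between libraries, and all other neighbours were separated. The heme enzymes were thus counted on few reads: Ppox had 11 to 43 counts in a library and Urod 10 to 56, against 1563 to 4891 for Fth1. Library totals were 2409623 to 7833440 counts. The depth of the screen's libraries is unknown, and its values are deviations from the median of each gene with no level.

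The spread between libraries set what could be seen in the screen. Leaving topotecan aside, 14 chemicals had several libraries, and the pooled SD between libraries of 1 chemical, on the log2 scale, was 0.10 for Fth1, 0.15 for Fech, 0.18 for Ftl1, 0.26 for Tfrc and 0.29 for Cpox. For Alas1 it was 0.40, for Ppox 0.44, for Uros 0.45 and for Urod 0.56. The SD across all 297 chemicals was 0.37 for Alas1 and 0.35 for Uros, no larger than that within a chemical. For Urod it was 0.73, for Ppox 0.50 and for Tfrc 0.29, each above the spread within a chemical. Most chemicals have a single library, so single values are given as descriptions and the tests rest on groups.

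**Figure D1:**
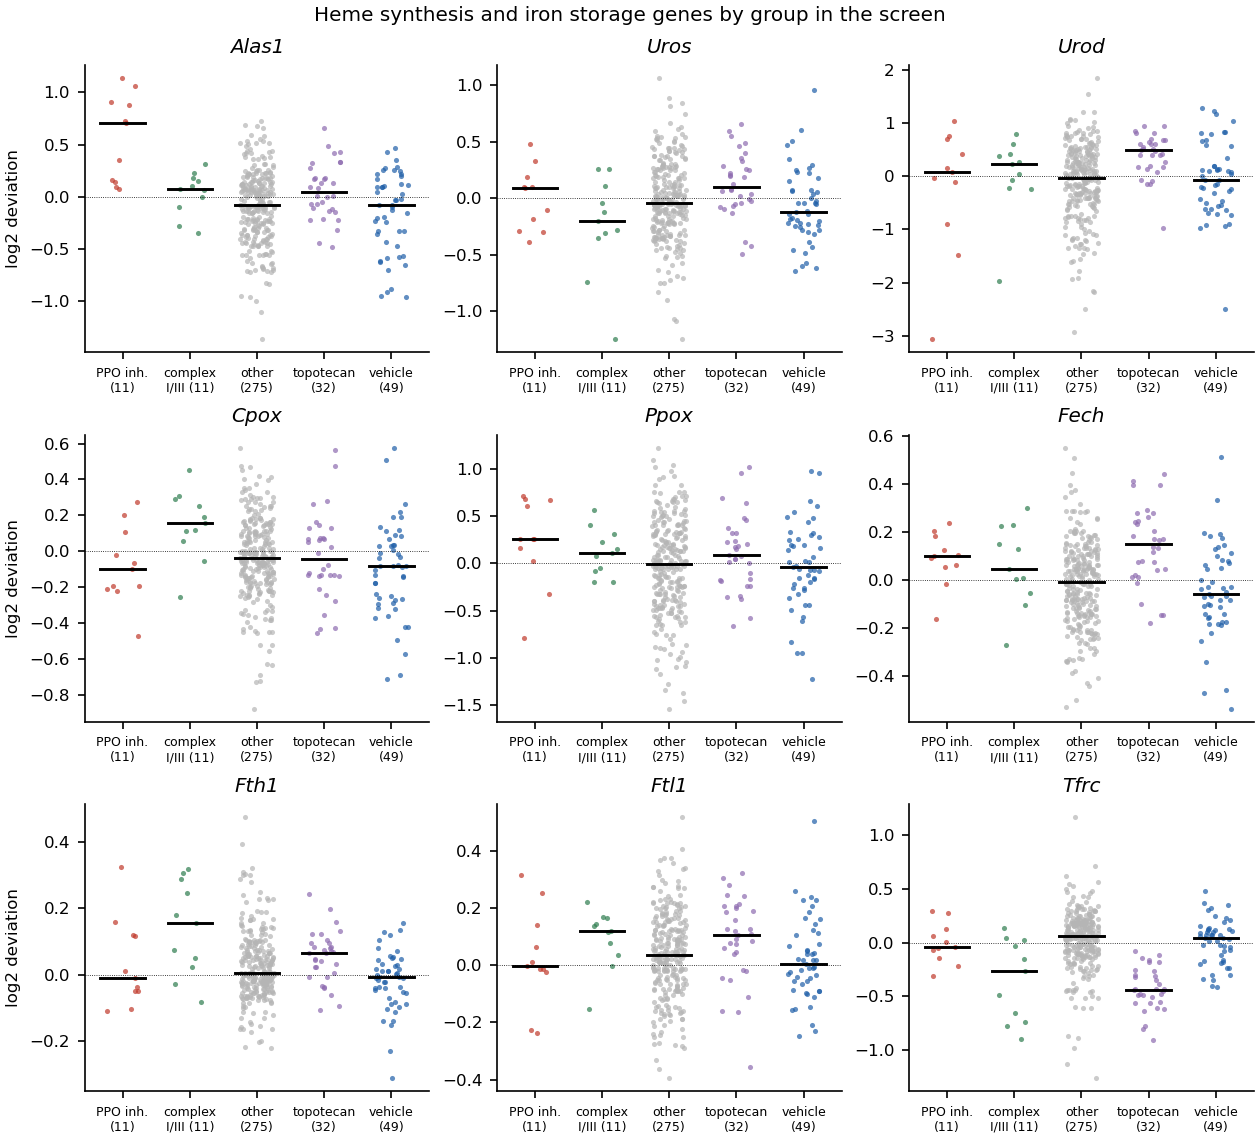
Values of the 9 genes in the screen, as log2 deviation from the median of each gene; points are chemicals (medians of their libraries) for the PPO inhibitors (11), the complex I and III inhibitors (11) and the remaining chemicals, and libraries for topotecan (32) and vehicle (49), and bars are medians. Alas1 of the PPO inhibitors has its median at 0.71 with every point above 0, and Tfrc of topotecan has its median at -0.44 with every point below 0.

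The question the PPO inhibitors pose is whether herbicides that act on the enzyme encoded by Ppox, next to last in the chain, moved the messages of the pathway. The activity of the enzyme in these cultures was not measured. Among the 9 genes, Alas1 rose, 1.58-fold against the other chemicals, and none of the other 8 was called. The deviations of Alas1, on the log2 scale, were 1.14 with lactofen, 1.06 with sulfentrazone, 0.91 with oxyfluorfen, 0.88 with butafenacil, 0.73 with flumioxazin and 0.71 with pyraflufen-ethyl. They were 0.35 with fluthiacet-methyl, 0.16 with flufenpyr-ethyl, 0.14 with flumiclorac-pentyl, 0.09 with carfentrazone-ethyl and 0.07 with acifluorfen. All 11 lay above 0, as did 140 of all 297 chemicals. The values of the other chemicals ran from -1.36 to 0.72 with a median of -0.07.

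The 5 highest Alas1 values of the 297 chemicals all belonged to PPO inhibitors, as did 6 of the highest 10. Those 6 exceeded the highest of the 49 vehicle libraries, 0.47, as did 14 of the other chemicals. The remaining 5 PPO inhibitors lay within the range of the vehicle libraries, at ranks 34 to 107 of 297. Values of the class therefore spread over the upper part of the whole screen rather than forming 1 block. Their SD was 0.41, against 0.40 between libraries of 1 chemical. With 1 library each, differences between the inhibitors cannot be told apart from that spread.

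**Figure D2:**
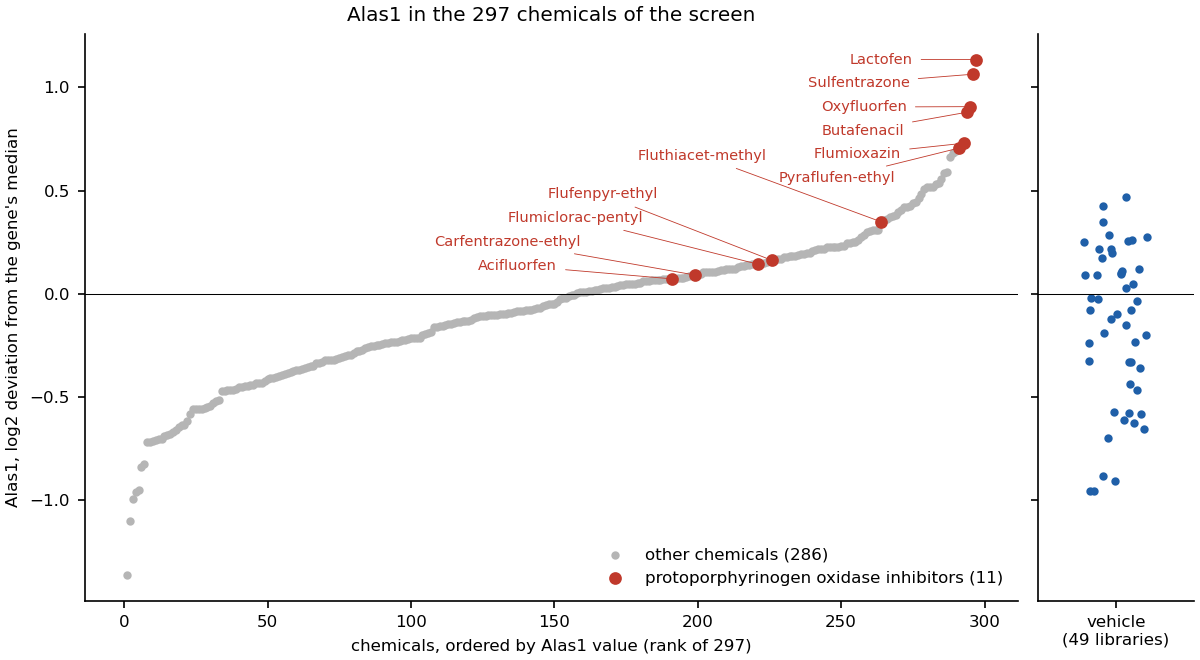
Alas1 in every chemical of the screen, ordered from the lowest to the highest log2 deviation (left; PPO inhibitors in red with names, other chemicals in grey), and in the 49 vehicle libraries (right). The 11 PPO inhibitors lie between 0.07 and 1.14, and hold the 5 highest places.

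The mean of the 11 PPO inhibitors was 0.57 and that of the other chemicals -0.09, a log2 difference of 0.66 ± 0.11 (SE), with a 95% interval of 0.45 to 0.86 and an adjusted p of 2.87e-05 by limma. Of all 13304 genes only 4, or 0.0301%, passed an adjusted p of 0.05 in this comparison, and Alas1 ranked 1 by p-value. The other 3 passed in the lower direction and are named here after their values were seen: D330023K18Rik with a log2 difference of -1.83, 1700086O06Rik with -1.10 and Asun with -0.59. A permutation test of the Alas1 difference, two-sided with 100000 resamples, gave p = 2e-05, the smallest it can give. Of the members only Alas1 was permuted for this comparison, on the same values as in the limma test. That p is unadjusted and not independent of the limma result. The difference stayed between 0.60 and 0.71 when each inhibitor was left out in turn, was 0.66 against the 246 other chemicals at 10 μM alone, and was called each time.

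Against the 49 vehicle libraries, which ran from -0.96 to 0.47 with a median of -0.08, Alas1 was higher by 0.72 ± 0.13 (SE) on the log2 scale, 1.65-fold (adjusted p = 0.00652, limma). It was the 1 gene of 13304 called there (0.00752%). The call depended on single libraries: without lactofen the log2 difference was 0.67 with an adjusted p of 0.0592, and without sulfentrazone 0.67 with 0.0532. The permutation p, again for Alas1 alone and unadjusted, was 2e-05, the smallest possible.

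For Ppox, the gene of protoporphyrinogen oxidase itself, the 11 values ran from -0.80 (sulfentrazone) to 0.71 (carfentrazone-ethyl) with a median of 0.26. They were above 0 with 9 of 11 inhibitors, and none was above every vehicle library. Its log2 difference from the other chemicals was 0.26 ± 0.15 (SE), with a 95% interval of -0.05 to 0.56 and an adjusted p of 0.986 by limma. Fech, which acts on the product of that enzyme, was above 0 with 9 of 11 inhibitors and with 152 of all 297 chemicals. Its log2 difference was 0.10, with an interval of -0.0035 to 0.21 and an adjusted p of 0.959. Cpox, directly upstream, had a log2 difference of -0.05 (-0.19 to 0.09) and Uros one of 0.03 (-0.18 to 0.25).

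Urod was the noisiest of the 9. With lactofen it had the lowest value of all 297 chemicals, -3.06 on the log2 scale, and with oxyfluorfen it stood at 1.05. A single vehicle library reached -2.49, and Urod had as few as 10 counts in a library of the count table. Its log2 difference for the class was -0.12, with an interval of -0.56 to 0.32.

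The iron genes did not pass the test with PPO inhibitors, and their intervals were narrow. The log2 difference from the other chemicals was 0.00 (-0.06 to 0.07) for Fth1, -0.02 (-0.11 to 0.08) for Ftl1 and -0.02 (-0.19 to 0.16) for Tfrc. Single values stood out nonetheless: oxyfluorfen had one of the 3 highest Fth1 values of the screen, 0.33, above every vehicle library, together with a Tfrc value of -0.31. Flumioxazin, with an Fth1 value of 0.16, was the other inhibitor above every vehicle library. Within the class, oxyfluorfen also had the lowest mean of the neuron markers (-0.28). Its means of the astrocyte (0.61) and microglia markers (0.62) were the highest of the class, and its Hmox1 value was 0.81. The part of cell composition in its values was not tested.

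The other genes of heme and iron metabolism gave no call with PPO inhibitors. Alad, another enzyme of heme synthesis, had a log2 difference of 0.03 from the other chemicals. None of the 13 measured genes of heme breakdown and transport was called. Among them Hmox1, the inducible heme oxygenase, had a log2 difference of -0.08. Likewise 0 of 14 genes of iron uptake, export and control and 0 of 17 of mitochondrial iron and iron-sulfur cluster assembly were called, with median log2 differences of -0.03 and 0.07. None of 10 target genes of NRF2, a stress-response factor that also acts on Hmox1 and ferritin, was called. The median log2 difference over all genes was -0.00053, and 694 genes had an unadjusted p below 0.05. No marker of neurons (5 measured), astrocytes (4), microglia (3), oligodendrocyte lineage (5), endothelial or mural cells (2) or fibroblasts (3) was called either, with list medians between -0.10 and 0.13.

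Alas1 values varied between compounds of 1 structural class at the same dose. Of the 5 pairs within a class, lactofen and acifluorfen differed by 1.06 on the log2 scale; lactofen is an ester of acifluorfen. Sulfentrazone and carfentrazone-ethyl, both triazolinones, differed by 0.97, and oxyfluorfen and acifluorfen by 0.83. Flumioxazin and flumiclorac-pentyl, both N-phenylphthalimides, differed by 0.59, and lactofen and oxyfluorfen by 0.23. With 1 library per compound these differences have no test. The SD expected of a difference between 2 libraries of 1 chemical was 0.57 for Alas1, and 4 of the 5 pairs exceeded it. A gap of 1 SD is often exceeded by the spread between libraries alone, and the pairs of diphenyl ethers share compounds. The pairs therefore cannot tell a difference between compounds from that spread.

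No difference in Alas1 was detected between the 3 diphenyl ethers and the other 8 inhibitors. The means were 0.71 and 0.52, and the log2 difference of 0.19 had an interval of -0.27 to 0.65 (exact permutation p = 0.497). Across all genes this comparison gave 0 calls by limma, with 967 genes at an unadjusted p below 0.05. In Ftl1 the diphenyl ethers stood at 0.14 (acifluorfen), 0.25 (lactofen) and 0.32 (oxyfluorfen). The other 8 ran from -0.24 to 0.06, so the groups did not overlap. The difference of 0.29 ± 0.10 (SE) had an exact permutation p of 0.0121, the smallest that 3 against 8 allow, and an adjusted p of 0.509 by limma. Cpox showed the same separation, with 0.11, 0.27 and 0.21 in that order against -0.47 to -0.02. Its difference of 0.38 ± 0.15 (SE) had an exact permutation p of 0.0121 and an adjusted p of 0.609. Neither passed the correction over all genes, and 1.71% of all 13304 genes did not overlap between these groups. The mean of the neuron markers separated the same compounds, at -0.018 (acifluorfen), -0.022 (lactofen) and -0.28 (oxyfluorfen) against -0.003 to 0.11. Over the 11 inhibitors Ftl1 followed that mean with Spearman's rho of -0.79 (Pearson's r -0.76). The part of cell composition in the differences of Ftl1 and Cpox was not tested.

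With inhibitors of complex I and III, Tfrc fell to 0.774-fold, and Fth1 (1.08-fold) and Cpox (1.14-fold) rose against the other chemicals. In this comparison 24.3% of all genes were called, 1166 higher and 2071 lower, so 3 of 9 members called is close to that background. Tfrc, in log2 deviation, was -0.89 with fenpyroximate, -0.78 with famoxadone, -0.74 with fluoxastrobin, -0.66 with pyraclostrobin and -0.49 with trifloxystrobin. These 5 lay below all 49 vehicle libraries, as did 26 of all 297 chemicals. The famoxadone value is the median of 2 libraries at -0.36 and -1.19, of which the first lay within the vehicle range. With the other 6 compounds it ran from -0.27 (fenamidone) to 0.13 (pyridaben), inside the vehicle range of -0.41 to 0.48. The log2 difference was -0.37 ± 0.09 (SE, adjusted p = 2.53e-04, limma).

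Fth1 was higher than in every vehicle library with 6 of the 11 compounds: pyraclostrobin (0.32), fenpyroximate (0.31), fenamidone (0.29), trifloxystrobin (0.25), rotenone (0.18) and famoxadone (0.16). Of all 297 chemicals, 36 were. The fenamidone value is the median of libraries at 0.15 and 0.42 and the famoxadone value that of libraries at 0.154 and 0.159, and the lower library of each lay within the vehicle range, which ended at 0.155. The lowest value was -0.08, with azoxystrobin. The log2 difference from the other chemicals was 0.11 ± 0.03 (SE, adjusted p = 0.00471, limma), and for Ftl1 it was 0.06 with an interval of -0.03 to 0.15. Cpox had a log2 difference of 0.19 ± 0.07 (SE, adjusted p = 0.0346). That call was lost on removal of fenamidone (0.0562), rotenone (0.0759), pyraclostrobin (0.0760), fenpyroximate (0.0859) or trifloxystrobin (0.127). Alas1 had a log2 difference of 0.10 with an interval of -0.12 to 0.33.

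Uros had a log2 difference of -0.22 and was not called (adjusted p = 0.122, limma). Its lowest value of the screen, -1.25, was that of rotenone, whose 2 libraries stood at -0.20 and -2.29. Without rotenone the log2 difference was -0.12 (adjusted p = 0.488).

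Beside these genes, Hmox1 rose 1.69-fold (adjusted p = 1.55e-04, limma), with pyraclostrobin at a log2 deviation of 2.44, fenpyroximate at 2.18 and trifloxystrobin at 2.07. Of the 13 genes of heme breakdown and transport, 2 rose (Hmox1 and the heme transporter Slc48a1, log2 difference 0.17) and 1 fell (Abcb6, -0.23). Of the 14 genes of iron uptake, export and control 4 rose, namely Steap3 (0.61), Cp (0.46), Steap2 (0.29) and Slc39a14 (0.19). Of the 17 mitochondrial genes 1 fell, Isca1 (-0.12). Of the 10 NRF2 target genes 2 rose, Gclc and Txnrd1. These counts stand beside the 24.3% of all genes called in this comparison, and nothing particular to the lists is read from them. Alad, with a log2 difference of 0.09, was not called.

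Markers of cell types moved in the same comparison. All 5 neuron markers fell (median log2 difference -0.31) and 3 of 4 astrocyte markers rose (median 0.40), and 2 of 3 fibroblast markers rose. Of the oligodendrocyte lineage markers 1 of 5 rose, and of the endothelial and mural markers 1 of 2. Of the microglia markers 0 of 3 were called (median 0.26). Over the 11 compounds, Fth1 followed the mean of the neuron markers with Spearman's rho of -0.90 (Pearson's r -0.88) and the mean of the astrocyte markers with 0.73 (0.78). With the mean of the microglia markers rho was 0.75 (0.68). For Tfrc these were 0.51 (0.49), -0.63 (-0.63) and -0.67 (-0.60). For fenamidone the study counted stained neurons, astrocytes and microglia at the sequenced dose and reports no significant change. It did not account for other cell types, and it gives no such counts for the other compounds of the class. The genes come from the same libraries, and the part of cell composition in the differences of Fth1 and Tfrc was not tested.

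Set directly against each other, the classes differed in Alas1 and Tfrc. In a fit with the rest of the chemicals, Alas1 was higher with PPO inhibitors than with complex I and III inhibitors by 0.53 ± 0.15 (SE) on the log2 scale (adjusted p = 0.00517, limma). Tfrc was higher by 0.34 ± 0.12 (adjusted p = 0.0370). In that comparison 13.9% of all genes were called, and 2 of 9 members. The PPO inhibitors were all at 10 μM and the other class at 0.01 to 10 μM. Fth1 differed by -0.10 (-0.20 to -0.01, adjusted p = 0.117) and Hmox1 by -0.81 (adjusted p = 0.00967). In the same comparison all 5 neuron markers were higher with PPO inhibitors (median log2 difference 0.38), and Cspg4 and Col1a1, of the oligodendrocyte lineage and fibroblast lists, were lower. None of the 4 astrocyte markers was called (median -0.33). Their part in the difference of Tfrc was not tested.

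**Figure D3:**
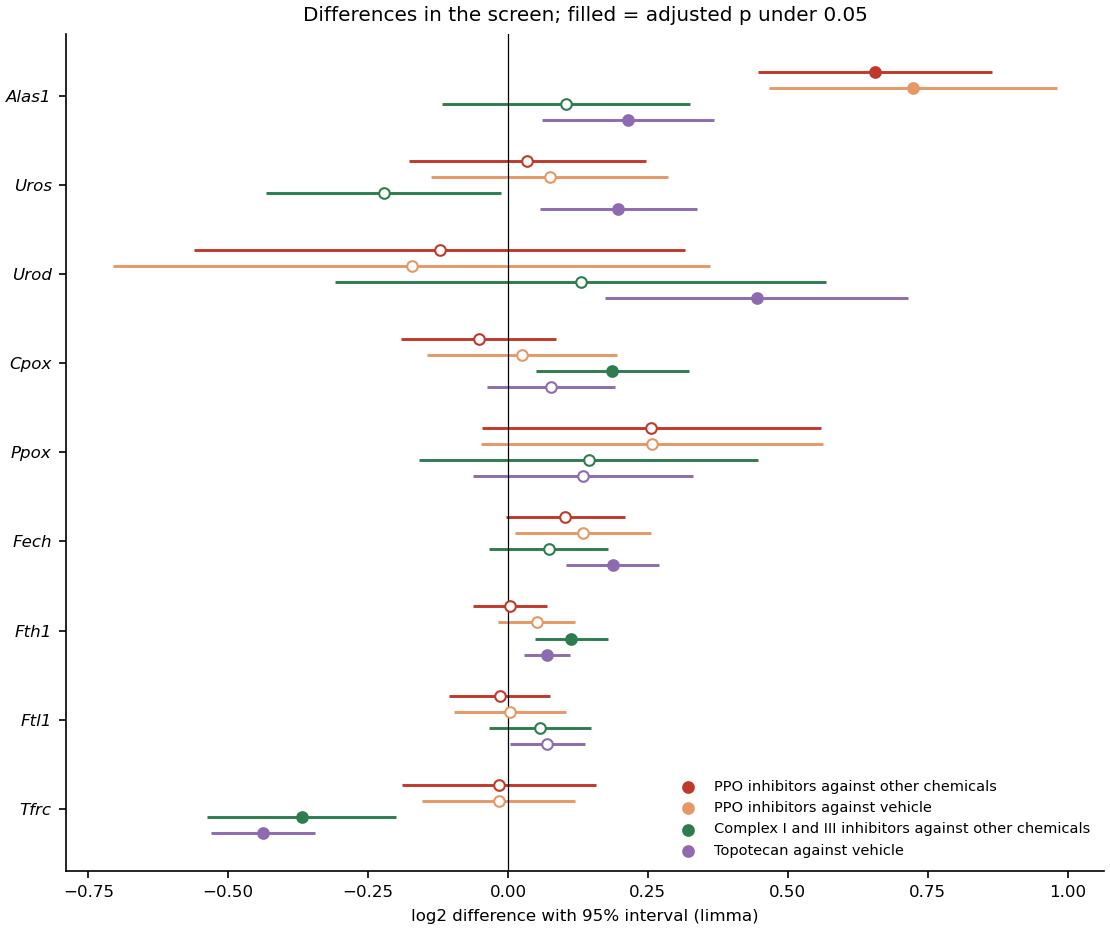
Log2 differences of the 9 genes in 4 comparisons of the screen, with 95% intervals from limma; filled circles mark an adjusted p under 0.05. Alas1 stands apart with PPO inhibitors (0.66 and 0.72), and Tfrc lies below 0 with complex I and III inhibitors (-0.37) and with topotecan (-0.44).

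Topotecan, a topoisomerase I inhibitor, had enough libraries for small differences to be called, and 45.8% of all genes were. Among the members 5 rose and 1 fell. Tfrc in the 32 topotecan libraries ran from -0.91 to -0.08 with a median of -0.44, below 0 in 32 of 32 and under all vehicle libraries in 19. The log2 difference was -0.44 ± 0.05 (SE), or 0.738-fold (adjusted p = 2.94e-13, limma).

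The log2 differences were 0.44 ± 0.14 (SE) for Urod, 0.21 ± 0.08 for Alas1, 0.20 ± 0.07 for Uros, 0.19 ± 0.04 for Fech and 0.07 ± 0.02 for Fth1, with adjusted p between 1.10e-04 (Fech) and 0.0184 (Alas1). Libraries of both groups overlapped for each of them. Ftl1 (0.07, adjusted p = 0.0799), Cpox (0.08) and Ppox (0.13) were not called. The median difference over all genes was 0.03. Hmox1, at 0.02, and Alad, at 0.10, were not called.

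The counts of listed genes called with topotecan stand beside the 45.8% of all genes that were called, and nothing particular to the lists is read from them. Of the 13 genes of heme breakdown and transport 6 rose, led by Hebp2 (0.53), Abcb6 (0.28), Bach1 (0.27) and Pgrmc1 (0.25). Of the 14 genes of iron uptake, export and control 5 rose, among them the second transferrin receptor Tfr2 (0.46), and 2 fell: the iron exporter Slc40a1 by 0.65 and the iron regulatory protein gene Ireb2 by 0.15 on the log2 scale. Of the 17 mitochondrial genes 3 rose, namely Nfs1 (0.26), Slc25a28 (0.18) and Glrx5 (0.14). All 5 neuron markers and all 4 astrocyte markers fell with topotecan. Their part in the changes of the members was not tested.

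The count table gave the members with pyraclostrobin as levels. Here 34.9% of the 12324 genes tested were called by edgeR, and 5 of 9 members: Tfrc fell, and Cpox, Fth1, Ftl1 and Alas1 rose. The libraries of the groups did not overlap for 35.2% of all genes, and for 3 of 9 members (Cpox, Fech and Tfrc). Pyraclostrobin library 1 is also the pyraclostrobin library of the screen, so these tables are not independent for this compound.

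Tfrc stood at 228, 327, 327 and 337 CPM in the pyraclostrobin libraries and at 424, 500, 475 and 437 CPM in the vehicle libraries. The first pyraclostrobin library was the lowest, and the groups were separate. The log2 fold change was -0.59 ± 0.14 (SE), or 0.664-fold (adjusted p = 0.00640, edgeR). It was called without any one library, between -0.69 and -0.52.

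Fth1 stood at 1639, 1000, 1302 and 998 CPM with pyraclostrobin and at 1158, 608, 659 and 633 CPM with vehicle. Ftl1 ran in parallel, at 352, 236, 287 and 235 CPM with pyraclostrobin and 271, 137, 142 and 133 CPM with vehicle. In both genes the first library of each group was the highest, and the first vehicle library alone reached into the range of the treated ones. The first libraries of both groups carry the number of the screen's pyraclostrobin library, and the others carry a later run of numbers. The first libraries may thus belong to a separate batch, which the labels do not state and which was not tested. The log2 fold changes were 0.69 ± 0.23 (SE, adjusted p = 0.0352, edgeR) for Fth1 and 0.70 ± 0.24 (adjusted p = 0.0384) for Ftl1.

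Both genes were higher with pyraclostrobin in 4 of 4 pairs of libraries that carry the same number. With the number as a replicate block, the adjusted p was 4.93e-04 for Fth1 and 0.00115 for Ftl1. Without the block, leaving out single libraries changed the calls. Without vehicle library 1 the log2 fold change was 0.96 for Fth1 (adjusted p = 5.12e-04) and 1.01 for Ftl1 (1.61e-04). Both calls were lost without pyraclostrobin library 1 (0.111 and 0.114) or 3 (0.0886 and 0.0892) and without vehicle library 2 (0.0998 and 0.106), 3 (0.0974 and 0.108) or 4 (0.0945 and 0.105). The summed level of 5 astrocyte markers was 630 CPM of the library total in vehicle library 1 and 199 to 224 CPM in the other 3. It was 2463 CPM in pyraclostrobin library 1 and 609 to 761 CPM in the others. The same libraries stood apart in oligodendrocyte lineage markers, with 189 CPM in vehicle library 1 against 87.1 to 95.6 CPM, and 324 CPM in pyraclostrobin library 1 against 197 to 227 CPM. The summed erythroid markers given above were also highest in library 1 of each group. The part of these markers in the ferritin values was not tested.

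Cpox stood at 38.5, 29.3, 36.5 and 32.8 CPM with pyraclostrobin and at 14.6, 22.2, 24.9 and 23.9 CPM with vehicle. Every treated library was above every vehicle library. The log2 fold change was 0.66 ± 0.19 (SE), 1.58-fold (adjusted p = 0.0183, edgeR), and the adjusted p was 0.0738, 0.0762 and 0.0513 without pyraclostrobin library 1, 3 or 4.

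Alas1 stood at 31.8, 48.8, 39.2 and 45.02 CPM with pyraclostrobin and at 32.5, 23.7, 33.01 and 25.96 CPM with vehicle. The first pyraclostrobin library lay among the vehicle libraries and the other 3 above them. The log2 fold change of 0.51 ± 0.18 (SE) passed with an adjusted p of 0.0433. It did not pass without pyraclostrobin library 2 (0.155), 3 (0.0900) or 4 (0.128), nor without vehicle library 2 (0.113), 3 (0.0546) or 4 (0.121).

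Fech stood at 49.1, 44.3, 43.4 and 41.5 CPM with pyraclostrobin and at 36.4, 33.9, 35.98 and 36.3 CPM with vehicle. The groups were separate, but the log2 fold change of 0.32 ± 0.12 (SE) had an adjusted p of 0.0666, and 0.0383 without vehicle library 1. Uros (-0.43, -0.92 to 0.06), Urod (0.50, -0.20 to 1.19) and Ppox (0.42, -0.32 to 1.15) were not called, and their intervals on the log2 scale were wide.

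**Figure D4:**
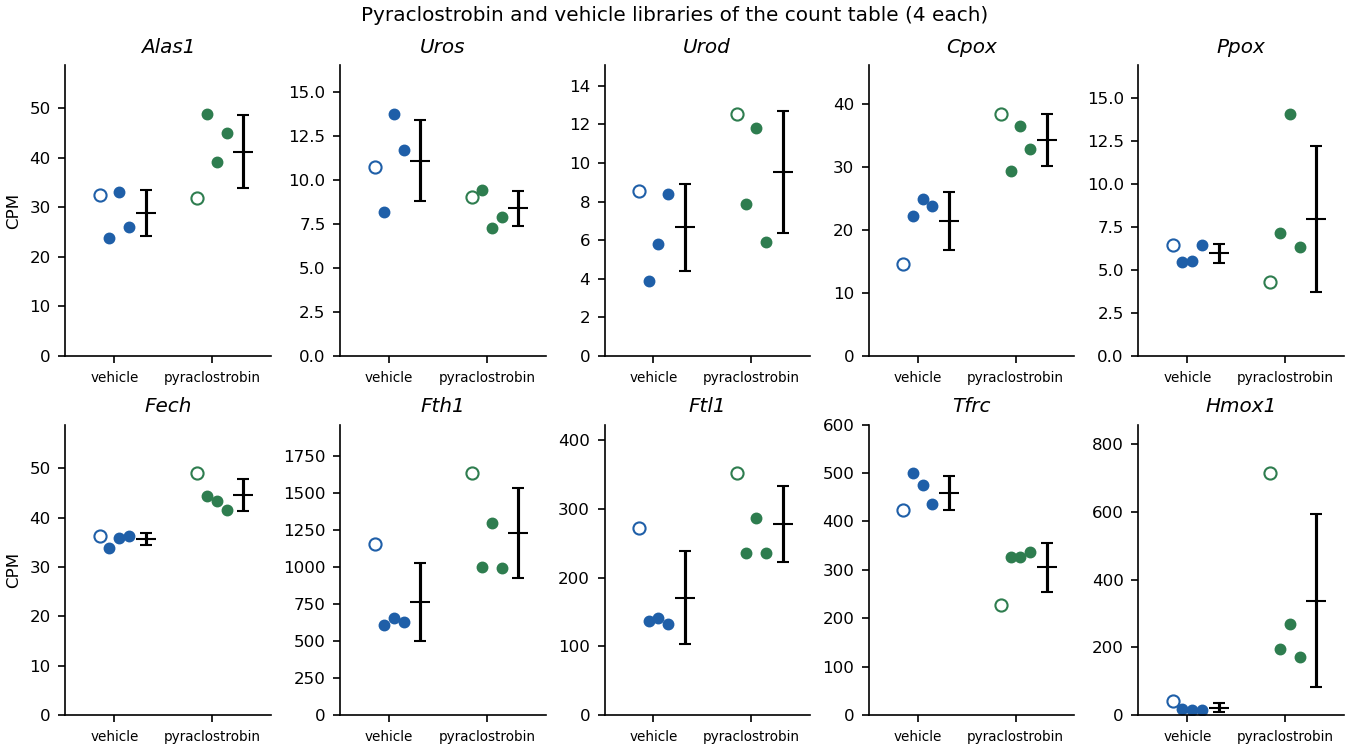
CPM after TMM scaling of the 9 genes and Hmox1 in the 4 vehicle (blue) and 4 pyraclostrobin (green) libraries of the count table, with mean and SD beside them; open circles are library 1 of each group. Tfrc, Fech and Cpox are separated between the groups, and open circles are the highest of their group for Fth1 and Ftl1.

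Hmox1 stood at 715, 194, 271 and 171 CPM with pyraclostrobin and at 40.7, 16.7, 16.04 and 14.6 CPM with vehicle. The first library was again the highest of each group, and the groups were far apart. The log2 fold change was 3.99 ± 0.52 (SE, adjusted p = 2.22e-04, edgeR). With it rose Blvrb (1.70), which acts after heme oxygenase, and Slc48a1 (0.42), 3 of 11 genes of heme breakdown and transport that were tested. Of 13 genes of iron uptake, export and control 5 rose, led by Cp (2.24), Steap3 (2.04), Trf (1.499) and Steap2 (1.18), and Slc11a2 fell by 0.48 on the log2 scale. Of 16 mitochondrial genes 2 rose, Nfu1 (1.09) and the mitochondrial iron importer Slc25a37 (0.75), and 1 fell, Abcb8 (-0.68). Of the 10 NRF2 target genes 5 rose and none fell. These counts stand beside the 34.9% of all genes tested that were called, and nothing particular to the lists is read from them. Alad (0.27) was not called. Trf and Cp are also expressed by glia, whose markers rose: 3 of 4 astrocyte, 4 of 4 microglia and 3 of 5 oligodendrocyte lineage markers were called higher, and 5 of 5 neuron markers lower. The summed neuron markers were 2681 to 3354 CPM with pyraclostrobin and 5872 to 5910 CPM with vehicle.

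Across the 297 chemicals the ferritin genes were the pair of members most alike. Fth1 and Ftl1 had a Spearman's rho of 0.58 and a Pearson's r of 0.61 (0.60 without the 2 chemicals farthest out in Fth1). In the 49 vehicle libraries rho was 0.33 and in the 32 topotecan libraries 0.43. The other 35 of 36 pairs had a rho between -0.22 and 0.21, with a median of 0.03 over all pairs. Tfrc ran weakly against Ftl1 (rho -0.22) and Fth1 (-0.19). The values of a chemical come from the same library or libraries, and no test was made.

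The genes of the whole table most like each member gave the same contrast. For Fth1 they were Ftl1 (rho 0.58), Cd81 (0.53) and Eef1a1 (0.51), and for Ftl1 they were Fth1, Gnb2l1 (0.58) and Psap (0.49). For Tfrc they were Prkar2b (0.50), Acsl4 (0.50) and Stard4 (0.47). For the heme enzymes the highest rho was lower, and no other member was among the nearest 3: Slu7, Ranbp3 and Galnt16 for Alas1 (0.25 to 0.26), Celf3, Thbs3 and Rnf167 for Uros (0.22 to 0.24), and Rnpepl1, Abca2 and Hddc3 for Urod (0.25 to 0.27). They were Ankrd50, Spry4 and Clip4 for Cpox (0.31), Ssh3, D4Wsu53e and Paxbp1 for Ppox (0.24 to 0.29), and Rab8b, Insig2 and Zfp383 for Fech (0.26 to 0.27). Hmox1 had a rho of 0.49 with Fth1 and of 0.43 with Ftl1.

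**Figure D5:**
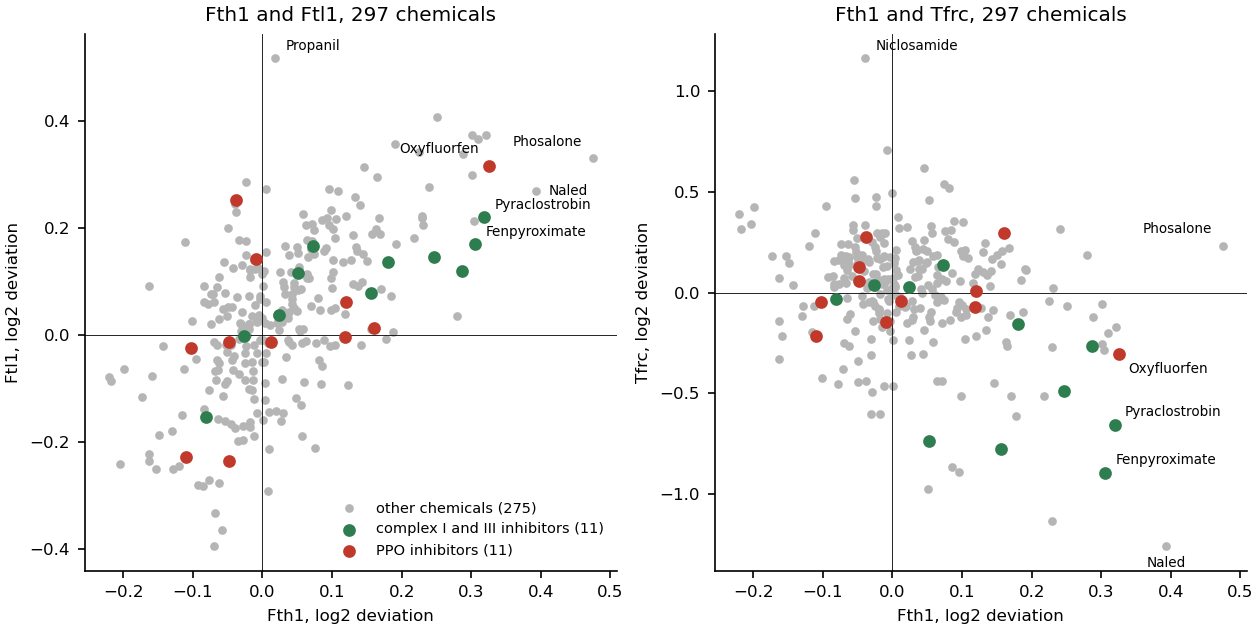
Log2 deviation of Ftl1 (left) and Tfrc (right) against that of Fth1 in the 297 chemicals of the screen, with PPO inhibitors in red, complex I and III inhibitors in green and the remaining chemicals in grey. Ftl1 climbs with Fth1 (Spearman's rho 0.58), and the relation of Tfrc to Fth1 is weak (-0.19).

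At the ends of the distributions, Fth1 was highest with phosalone (0.47), naled (0.39) and oxyfluorfen (0.33) and lowest with methylene bis(thiocyanate) (-0.22), tefluthrin (-0.22) and clothiandin (-0.20). Of the 10 chemicals with the highest Fth1, all 10 had Ftl1 above 0 (184 of all 297 did), 9 had Tfrc below 0 (126 of all 297 did) and 7 had Hmox1 above every vehicle library (48 of 297). Tfrc was lowest with naled (-1.26), trichlorfon (-1.13) and fludioxonil (-0.98), and highest with niclosamide (1.16), dichloran (0.71) and carbaryl (0.62). Ftl1 was highest with propanil (0.52), azinphos-methyl (0.41) and malaoxon (0.37) and lowest with thiacloprid (-0.40), monocrotophos (-0.36) and fipronil (-0.33). All of these are single libraries.

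Among the enzymes, Alas1 was lowest with prallethrin (-1.36), thidiazuron (-1.10) and chloridazon (-0.99). Fech was highest with irinotecan (0.55), fluazifop-butyl (0.51) and methamidophos (0.45), and lowest with acetamiprid (-0.53), imazethapyr (-0.50) and trifluralin (-0.44). Cpox ran from -0.87 with formetanate hydrochloride, -0.73 with pyrimethanil and -0.72 with dimethyl phthalate to 0.57 with emamectin benzoate, 0.47 with chlorpropham and 0.47 with niclosamide. Ppox ran from -1.54 with monocrotophos, -1.46 with clofentezine and -1.38 with prometryn to 1.23 with 2-phenylphenol, 1.10 with clodinafop-propargyl and 1.05 with methylene bis(thiocyanate).

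Urod was lowest with lactofen (-3.06), sethoxydim (-2.92) and symclosene (-2.50) and highest with boscalid (1.84), camptothecin (1.55) and methyl isothiocyanate (1.21). Uros was lowest with rotenone, butylate (-1.24) and formetanate hydrochloride (-1.08), and highest with diethylhexyl pthalate (1.06), cyproconazole (0.89) and cacodylic acid (0.85). No more than 1 PPO inhibitor was among the highest 3 or lowest 3 of any member other than Alas1.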

How the data were processed

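The 9 genes and all gene lists were chosen with earlier results of these data known. Per the study's methods and the labels, the authors aligned reads to mm9 with TopHat and counted reads per gene symbol. For pyraclostrobin the authors deposited raw counts without normalization. For the screen the authors deposited log10 RPKM values after quantile normalization, centring on each gene's median and removal of batch effects by a mixed model, so batches and levels can no longer be examined. The labels name no batches.

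Screen values were converted to log2, and each chemical entered as the median of its libraries. Groups were compared with limma 3.58.1 without a variance trend, and counts with edgeR 4.0.16 (quasi-likelihood test, TMM, a minimum of 10 counts in 4 or more libraries) in R 4.3.3, each with Benjamini-Hochberg adjustment over all genes tested and a threshold of 0.05. Intervals are 95% intervals of these fits. Fits were tested on simulated data. DESeq2 1.42.0, other scalings and filters, single libraries and leaving out each library were alternatives. Permutation tests used scipy 1.17.1.

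Genes named are the 9 members, at most 4 called genes of each list by size of change, Hmox1 and Alad, and for each member the 3 most similar genes and the 3 highest and lowest chemicals. Columns of per-sample values that were not used numbered 6: they form a table on sulforaphane with fenamidone whose columns share 1 name, so that planned comparison was not made.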

Additional observations from a re-analysis of the deposited data

Results flagged for a closer look

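The difference between the classes was itself tested for all 9 members, of which 2 passed and 7 did not: Alas1 was higher with PPO inhibitors than with complex I and III inhibitors by 0.53 on the log2 scale, and Tfrc by 0.34 (limma).

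Of 27 groups of 4 to 10 values tested by Dixon's criterion, which chance meets in about 1 of 20 groups, 4 held a value far from the rest, all of them groups of 4 libraries of the count table. In vehicle library 1 of the count table, Fth1 was at 10.18 on the log2 CPM scale with the other 3 at 9.25 to 9.37, and Ftl1 was at 8.09 with the others at 7.06 to 7.15. The lowest Fech value among the vehicle libraries was 5.10 (others 5.19 to 5.20), and the lowest Tfrc value among the pyraclostrobin libraries, that of library 1, was 7.84 (others 8.355 to 8.39996).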

How the results depend on the processing

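Of the 16 called differences of the 9 genes, 117 of 151 values under the alternatives stayed called and 34 lost the call, none with a change of sign. Of the 38 differences not called, 2 of 387 values gained a call and 1 was called with the other sign: Tfrc with PPO inhibitors was 0.34 higher when complex I and III inhibitors replaced all other chemicals as the comparison, an alternative added after the data were seen. Leaving out each PPO inhibitor in turn gave 1 to 5 calls over all genes against other chemicals and 0 to 2 against vehicle, where the log2 difference of Alas1 was 0.67 to 0.77. With variable genes only, 638 genes were called with complex I and III inhibitors and 1784 with topotecan, of 5121 tested. Of the members, Alas1, Uros, Urod and Ppox were among these genes and the others gave no value. At a threshold of 0.01, 2631 genes were called with pyraclostrobin, and of the members Tfrc alone remained called.

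The study compared pyraclostrobin with matched vehicle controls and does not name the match. Libraries of the count table carry shared numbers, with deviations that correlated at 0.38, 0.10, -0.03 and 0.16. The main fit did not take the numbers as pairs, and these correlations cannot tell whether the libraries were paired. With a replicate block 4804 genes were called. The log2 fold changes were 0.71 for Fth1 (adjusted p = 4.93e-04), 0.75 for Ftl1 (0.00115), 0.51 for Alas1 (0.0619), 0.68 for Cpox (0.0204) and -0.60 for Tfrc (0.00195), all by edgeR. Without both libraries numbered 1, chosen after the data were seen, 6090 genes were called and all 5 members stayed called. Without a filter on low counts, Alas1 (0.42, adjusted p = 0.112) and Cpox (0.55, adjusted p = 0.0551) were not called. The alternatives planned for sulforaphane were not run. Depth limits Ppox and Urod most, and the screen's depth is unknown. Intervals cover only the spread between libraries, or between chemicals where groups of chemicals are compared. For PPO inhibitors against vehicle they cover a mix of both.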

Other observations

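Naled and trichlorfon, organophosphate insecticides at 10 μM with 1 library each, combined the lowest Tfrc values of the screen with high Fth1 (0.39 and 0.23) and Hmox1 (2.35 and 2.08). Phosalone, of the same family, had the highest Fth1 of the screen (0.47), an Hmox1 value of 2.82 and a Tfrc value of 0.23. Niclosamide at 1 μM, with the highest Tfrc (1.16), had an Alas1 value of -0.68 and an Fth1 value of -0.04. All are log2 deviations of single libraries chosen after their values were seen, and no test was made.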
